A study of Mus musculus with 4 samples.

Results

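Altogether 10 genes best known from the gut were followed in single cells of mouse lung tumours: Agr2, Lgals4, Vil1, Phgr1, Tspan8, Cdx2, Tff3, Cdh17, Cldn2 and Muc13. They were taken by symbol, and all 10 were among the 32289 features of the count matrices. Each symbol named 1 feature. All groups carried Hnf4aflox, frt-flanked p53 and Rosa-FSF-CreERT2, a Cre recombinase that Flp activates and tamoxifen switches on. Adenovirus with FlpO under a surfactant protein C promoter (mSPC), a promoter of alveolar type 2 cells, started the tumours. Vehicle, named in more than 1 way in the labels, or tamoxifen was given 10 weeks later, and tumours were taken after 2 further weeks. Macroscopic tumours were dissociated, and a portion of the suspension was set aside before beads against CD45 and CD31 removed immune and endothelial cells. The 4 groups, vehicle or tamoxifen and before or after depletion, hold 1 library each. The labels give no number of animals or tumours, and both portions of a treatment come from the same suspensions.

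Intestinal epithelium is built from absorptive enterocytes with a brush border of microvilli, mucus-secreting goblet cells and the stem cells that renew them. The homeobox factor Cdx2 sets intestinal identity, and the nuclear receptor Hnf4a sustains absorptive genes in gut and liver. Lung tumours that drift from alveolar identity are known to take up gut, stomach and liver genes. Among the genes followed, Agr2 encodes a disulfide isomerase needed for mucin folding, Tff3 a trefoil peptide of goblet cells and Muc13 a membrane mucin. Vil1 encodes villin, the actin bundler of microvilli, Lgals4 the lectin galectin-4 and Phgr1 a small histidine- and glycine-rich protein of gut epithelium. Tspan8 is a tetraspanin, Cdh17 an intestinal cadherin and Cldn2 a pore-forming claudin of tight junctions.

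The libraries held 6558 to 7867 cell barcodes and 92644997 to 144994771 UMIs (unique molecular identifiers, each a counted transcript molecule). After filtering, 6105 to 7355 cells remained, and any pair of libraries shared 10 to 18 barcodes. Epithelial-like cells, named from Epcam, keratins and related markers, numbered 1095 with vehicle before depletion and 6538 after it. The libraries labelled tamoxifen held 1120 and 7103. Levels are the summed UMIs of these cells scaled to a common total (CPM), with exact Poisson 95% intervals in parentheses. Every interval covers counting error only. There are no replicates, so the spread between animals is not known here and no test was possible.

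Hnf4a, the floxed gene, checks the treatment label. Its level in epithelial-like cells with vehicle was 56.4 CPM (53.9 to 59.1) before depletion and 54.9 CPM (53.7 to 56.2) afterwards. The libraries labelled tamoxifen held 85.2 CPM (82.2 to 88.3) and 82.7 CPM (81.1 to 84.2). Hnf4a was thus higher where the label implies its deletion, and reads from the 3′ end cannot tell whether the floxed exons were present. Hnf4a also overlaps Hnf4aos on the opposite strand, and strand use in counting is not given in the sources used here. Directions below therefore belong to the libraries as labelled, not to loss of Hnf4a.

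The genes did not form a complete intestinal set in these cells. Cdx2 gave 5 and 14 UMIs before and after depletion with vehicle and 0 in both libraries labelled tamoxifen, where 0 counts allow up to 0.0838 and 0.0223 CPM. The 14 UMIs came from 10 cells. Cdh17 stayed between 0.699 and 1.60 CPM and Muc13 between 0.0838 and 1.60 CPM in the 4 libraries. Before depletion with vehicle, 1 cell held 47 of the 52 Muc13 UMIs. The other 7 genes reached 10 CPM in at least 1 library of each pair. The label of an intestinal programme therefore rests on secretory, brush border and surface genes and not on the factor Cdx2.

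In the GENCODE annotation of GRCm38 all 10 genes are protein coding. Agr2 (ENSMUSG00000020581) spans chr12:35992907-36004087 and Lgals4 (ENSMUSG00000053964) chr7:28833854-28841708, both on the plus strand. Vil1 (ENSMUSG00000026175) spans chr1:74409376-74435559 and Phgr1 (ENSMUSG00000046804) chr2:118772769-118778165, also on the plus strand. Cldn2 (ENSMUSG00000047230) spans chrX:139800828-139811386 on the plus strand and Tff3 (ENSMUSG00000024029) chr17:31125306-31129646 on the minus strand.

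The promoters of Agr2, Lgals4 and Vil1 are printed because these genes were lower together in the libraries labelled tamoxifen, and that of Phgr1 because its level moved in opposite ways between cell states. Each line gives the 250 bases before the RefSeq transcription start on the plus strand of GRCm38.p6. Of the 10 genes, 8 had an entry, and Tff3 and Cdh17 had none. Agr2 lies at chr12:35992675-35992924, Lgals4 at chr7:28833544-28833793, Vil1 at chr1:74409134-74409383 and Phgr1 at chr2:118772524-118772773. Capitals mark a match to a searched motif.
Agr2: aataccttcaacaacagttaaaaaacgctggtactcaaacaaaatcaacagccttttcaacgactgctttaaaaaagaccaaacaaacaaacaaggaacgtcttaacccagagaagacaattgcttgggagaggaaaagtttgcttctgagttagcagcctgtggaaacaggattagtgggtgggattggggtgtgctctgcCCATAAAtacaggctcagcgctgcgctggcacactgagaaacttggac
Lgals4: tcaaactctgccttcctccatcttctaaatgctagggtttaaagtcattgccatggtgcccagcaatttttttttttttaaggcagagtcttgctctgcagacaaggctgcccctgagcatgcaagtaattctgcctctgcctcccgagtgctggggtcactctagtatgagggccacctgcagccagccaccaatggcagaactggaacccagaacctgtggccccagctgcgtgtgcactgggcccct
Vil1: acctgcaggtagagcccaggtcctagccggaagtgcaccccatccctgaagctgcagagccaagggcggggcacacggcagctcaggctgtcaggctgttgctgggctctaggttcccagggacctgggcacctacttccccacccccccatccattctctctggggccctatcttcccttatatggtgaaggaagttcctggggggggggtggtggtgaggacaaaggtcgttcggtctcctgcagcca
Phgr1: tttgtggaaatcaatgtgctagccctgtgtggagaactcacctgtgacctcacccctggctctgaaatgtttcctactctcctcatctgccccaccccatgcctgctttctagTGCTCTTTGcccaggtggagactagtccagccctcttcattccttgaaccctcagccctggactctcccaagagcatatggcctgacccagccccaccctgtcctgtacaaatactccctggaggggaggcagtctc
On both strands of a window of 300 bases, from 250 before to 50 after the start, 6 short motifs were searched. The capitals in Agr2 match the CDX motif TTTATNG on the minus strand, which 10.9% of all 32851 promoters held. Those in Phgr1 match the HNF4 motif CAAAGNNCA on the minus strand, which 6.36% held. Neither Lgals4, Vil1 nor Cldn2 held any of the 6. The others were a longer HNF1 motif (0.399% of promoters), TGTTTAC for FOXA (3.65%), CTCAAG for NKX2-1 (15.9%) and AGATAA for GATA (11.2%). FOXA letters occurred in Tspan8 and Cdx2, NKX2-1 letters in Tspan8 and Muc13, and HNF4 letters in Muc13. No motif searched contains another, and a match describes letters only.

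Agr2, Lgals4 and Vil1 were lower in the libraries labelled tamoxifen, both before and after depletion. Agr2 was counted at 79.4 CPM (76.3 to 82.5) and 117 CPM (115 to 118) with vehicle, before and after depletion. With tamoxifen it was counted at 18.3 CPM (16.9 to 19.7) and 40.3 CPM (39.2 to 41.4). Both tamoxifen values lay under both vehicle values. The vehicle libraries held Lgals4 at 16.97 CPM (15.6 to 18.4) and 20.5 CPM (19.8 to 21.3), and the tamoxifen libraries at 5.62 CPM (4.87 to 6.45) and 6.54 CPM (6.11 to 6.99). Vil1 had 21.9 CPM (20.3 to 23.5) and 21.9 CPM (21.1 to 22.7) under vehicle, against 8.19 CPM (7.28 to 9.18) and 9.24 CPM (8.74 to 9.77). For these genes, too, both tamoxifen values lay under both vehicle values. The share of all genes that did so was not counted, and both portions of a treatment come from the same suspensions. Vil1 overlaps Usp37, Tspan8 4930422I22Rik and Muc13 Gm15657, each on the opposite strand, so their counts are uncertain in the same way.

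A ratio is the log2 of the tamoxifen over the vehicle level, each with 1 CPM added. Their intervals are exact conditional binomial 95% intervals of the ratio without that addition. Agr2 had ratios of -2.06 (-2.24 to -1.99) before and -1.51 (-1.58 to -1.49) after depletion. Lgals4 had -1.44 (-1.84 to -1.36) and -1.51 (-1.76 to -1.54), and Vil1 had -1.32 (-1.62 to -1.22) and -1.16 (-1.34 to -1.15). The rule asked for 10 CPM or more in either library of a pair and a 2-fold difference in 1 direction in both pairs. By it, 3 of the 7 genes considered were lower and 0 higher. Of 9040 genes considered, 80 were lower (0.885%) and 34 higher (0.376%). Each pair alone gave the same 3 genes as lower and 0 as higher. The shares of all genes were 1.32% lower and 0.554% higher before depletion, and 1.21% lower and 0.535% higher after it. The median ratio of the 7 was -0.10 before and -0.51 after depletion, against -0.04 and 0.01 over all genes considered.

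**Figure D1:**
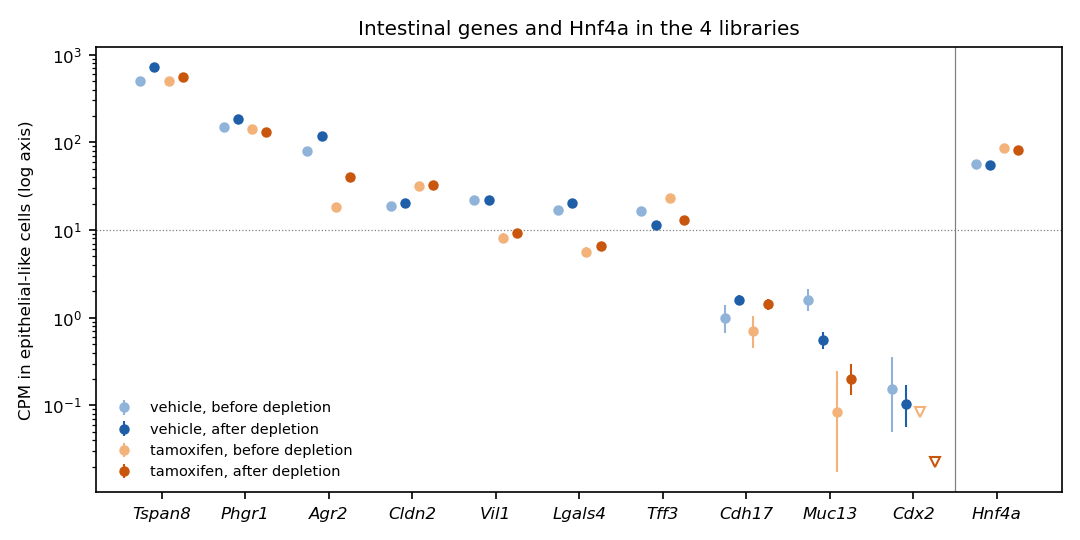
Level of each gene in epithelial-like cells (CPM, log axis) in the 4 libraries. Bars are exact Poisson 95% intervals, open triangles mark the 3-count limit where no UMI was seen, and the dotted line marks 10 CPM. Agr2, Lgals4 and Vil1 lie lower, and Cldn2 and Hnf4a higher, in both libraries labelled tamoxifen.

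The other 4 genes that reached 10 CPM differed by less than 2-fold in either pair. Cldn2 was higher with tamoxifen, at 31.6 CPM (29.8 to 33.5) and 32.4 CPM (31.4 to 33.4) against 18.5 CPM (17.1 to 20.1) and 20.5 CPM (19.7 to 21.2) with vehicle. Its ratios were 0.74 (0.63 to 0.91) and 0.64 (0.59 to 0.73). Phgr1 had 150.4 and 185 CPM under vehicle against 141 and 130.02 CPM under tamoxifen, which gives ratios of -0.10 (-0.15 to -0.04) and -0.51 (-0.54 to -0.48). Tspan8 had 496 and 714 CPM under vehicle against 499 and 555 CPM under tamoxifen. Its ratio was 0.01 (-0.02 to 0.04) before depletion, where the interval holds 0, and -0.36 (-0.38 to -0.35) after it. Tff3, at 16.6 and 11.3 CPM under vehicle against 23.2 and 13.2 CPM under tamoxifen, rested on few cells, as given below. Below the minimum, Muc13 had ratios of -1.26 and -0.37, the first with 52 against 3 UMIs, most of them from the single vehicle cell given above. The ratios of Cdx2 were -0.21 and -0.14 on this scale, which understates the difference of genes this low.

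Levels in other cell classes show where the counts came from. Agr2 stayed at or below 2.64 CPM in endothelial-like cells. Tspan8 was also counted there, at 88.99 to 141 CPM. Muc13 was counted in endothelial-like cells at 18.9 to 27.4 CPM, above its epithelial-like level in every library. Before depletion, Lgals4 was counted in dendritic cell-like cells at 6.59 CPM (5.05 to 8.45) with vehicle and 17.2 CPM (14.0 to 20.8) with tamoxifen. Cdh17 was counted in B cell-like cells before depletion at 8.45 CPM (5.30 to 12.8) with vehicle and 3.35 CPM (0.912 to 8.57) with tamoxifen.

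Epithelial-like cells were then divided into 14 states by clustering without the 10 genes, Hnf4a and related gut genes. A state is called by its leading genes, or as X-like where its markers named it. With vehicle, Agr2 was concentrated in a hepatic-like state led by Spink1 and Ttr, with further liver genes such as Gc. Of the 10 hepatic markers, 6 were seen in at least 10% of its cells. The hepatic marker Ahsg led a different state, and Serpina1a gave 0 to 6 UMIs per library over all epithelial-like cells. The Agr2 level in the Spink1-led state, before and after depletion, was 296 and 374 CPM under vehicle against 145 and 458 CPM under tamoxifen. After depletion with vehicle this state held 89.7% of all epithelial Agr2 UMIs but 28.0% of epithelial UMIs. Its share of epithelial-like cells was 11.2% (9.42 to 13.3, Clopper-Pearson 95%) and 18.5% (17.6 to 19.5) with vehicle. With tamoxifen it made up 1.43% (0.819 to 2.31) and 1.89% (1.58 to 2.23), or 16 and 134 cells. The median depth of the state was 31889 UMIs, above that of all other states. In it, 4 to 6 of 8 alveolar macrophage markers were counted, at a summed 29.5 to 105 CPM, and the part of doublets in its levels was not tested.

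Within the Spink1-led state the pairs went opposite ways for Agr2, at -1.03 (-1.35 to -0.73) before and 0.29 (0.23 to 0.36) after depletion. The pre-depletion value rests on the 16 tamoxifen cells. The thinned share of cells with Agr2 in this state was higher with tamoxifen in both pairs. Before depletion it was 22.3% (15.2 to 30.8) with vehicle and 50% (24.7 to 75.3) with tamoxifen, and these intervals overlap. After depletion it was 27.5% (24.99 to 30.2) and 39.1% (30.8 to 47.9), whose intervals lie apart. Outside it, Agr2 after depletion was counted at 67.6 CPM (61.1 to 74.5) with vehicle and 8.87 CPM (4.96 to 14.6) with tamoxifen in a state led by Sdk1 and Rbfox1. In the state led by Tpsab1 and Mcpt2, Agr2 was higher with tamoxifen, with ratios of 3.86 and 1.49. In the cycling-like state it was higher as well, with ratios of 1.23 and 1.61. After depletion with tamoxifen, 44 cells led by Adgrg7 and Dcpp2 held Agr2 at 228 CPM, and the vehicle library had 3 such cells. Before depletion, 485 of the 2573 vehicle Agr2 UMIs lay in an unnamed state led by the immune genes Chil3, Ccl6 and Tyrobp. That state made up 14.5% of epithelial-like cells with vehicle and 11.2% with tamoxifen before depletion, and 1.82% and 0.648% after it. Its median depth was 7131 UMIs. All 8 alveolar macrophage markers were counted there before depletion, at a summed 953 CPM with vehicle and 1159 CPM with tamoxifen, and 2 and 1 of them after it. Without this state the same 3 genes were 2-fold lower in both pairs.

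Few cells carried much of the Agr2. Before depletion with vehicle, the 10 highest cells held 60.2% of its UMIs, and 1 cell held 402 of 2573. After depletion the 10 highest held 15.7% with vehicle and 28.1% with tamoxifen. Shares of cells depend less on such cells and were counted in cells thinned at random to 5000 UMIs each. Agr2 was then seen in 7.94% (7.27 to 8.65) of epithelial-like cells with vehicle and 3.80% (3.36 to 4.28) with tamoxifen after depletion. Before depletion the shares were 4.17% (3.01 to 5.62) and 3.32% (2.34 to 4.57), whose intervals overlap.

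Tff3 was held by fewer cells still. A Tff3 UMI was seen in 12 and 78 epithelial-like cells with vehicle and in 3 and 24 with tamoxifen. A single cell held 328 of 538, 150 of 1533, 557 of 832 and 921 of 1768 UMIs, in the order of vehicle before and after and tamoxifen before and after depletion. The Spink1-led state held from 91.1% to 99.9% of Tff3 UMIs in the 4 libraries. After depletion the thinned share of cells with Tff3 was lower with tamoxifen, at 0.134% (0.0611 to 0.253) against 0.738% (0.539 to 0.986), while its CPM was higher. The Tff3 ratio after depletion, 0.21, became -0.25 by the mean over cells, -2.66 with a gate on each cell and -0.48 without the Spink1-led state.

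Vil1 and Lgals4 were spread over more states than Agr2 in the vehicle libraries. The Spink1-led state held 51.9% of Vil1 and 49.4% of Lgals4 UMIs there after depletion. With tamoxifen, the largest part of Vil1, 45.9%, lay in a state led by Ahsg and Tfpi, which held 29.3% of epithelial UMIs. In the Spink1-led state Vil1 had 61.7 and 40.6 CPM under vehicle against 24.9 and 35.5 CPM under tamoxifen. The post-depletion levels there overlap, with intervals from 38.6 to 42.7 and from 30.6 to 41.1. Lgals4 had 44.8 and 36.2 CPM in that state under vehicle against 26.4 and 34.8 CPM under tamoxifen, and its post-depletion intervals also overlap. The transitional-like state, led by Pyy, Inhba and Aldh1a3, differed more. Lgals4 had 9.72 and 20.4 CPM there under vehicle against 1.38 and 3.33 CPM under tamoxifen. Its ratios were -2.17 (-4.32 to -1.60) and -2.30 (-2.97 to -2.27). Vil1 had 18.8 and 23.4 CPM against 4.38 and 7.43 CPM, for ratios of -1.88 (-2.88 to -1.38) and -1.53 (-1.90 to -1.41). Vil1 was also lower in both pairs in the Tpsab1-led state, at -1.605 (-3.19 to -0.65) and -1.20 (-1.80 to -0.89). In the cycling-like state it was at -1.14 (-2.08 to -0.40) and -0.79 (-1.32 to -0.40). The transitional-like state made up 19.96% of epithelial-like cells with vehicle and 16.1% with tamoxifen after depletion. It also held from 64.0% to 78.1% of Cdh17 UMIs in each library.

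**Figure D2:**
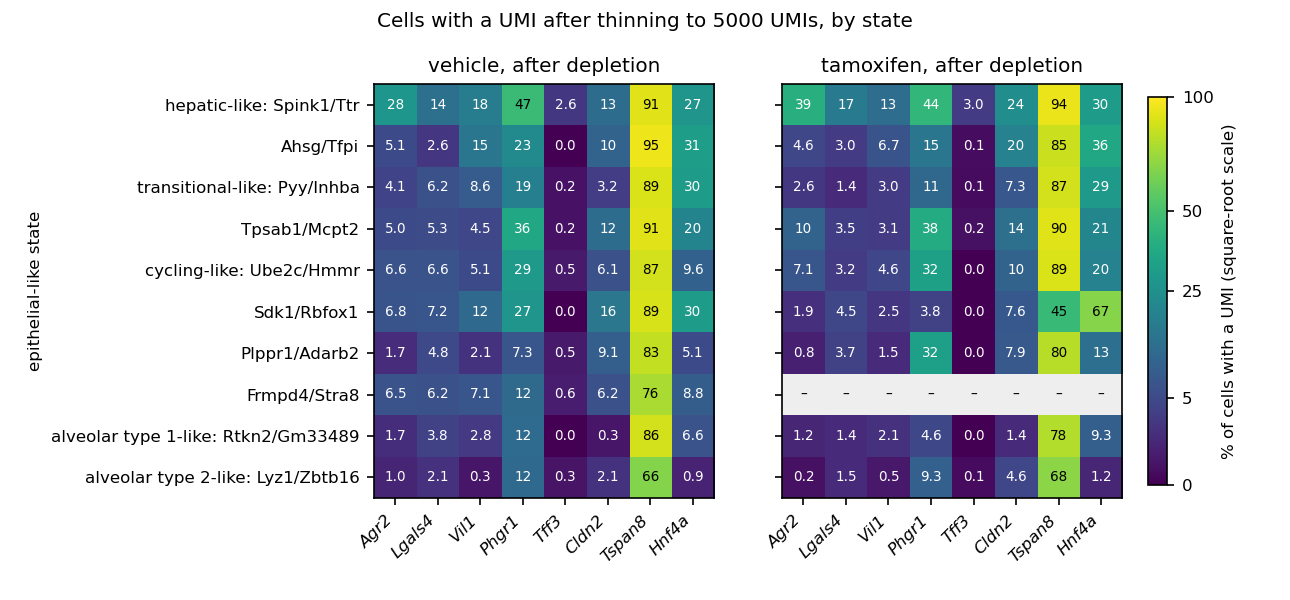
Share of cells with a UMI of each gene after thinning to 5000 UMIs, by epithelial-like state (rows) in the post-depletion libraries, on a square-root colour scale. A dash marks a state with too few cells. Agr2, Lgals4, Vil1, Phgr1 and Tff3 have their highest shares in the Spink1/Ttr row. Phgr1 differs most between the libraries in the Plppr1/Adarb2 and Sdk1/Rbfox1 rows. It is also lower with tamoxifen in the Pyy/Inhba and Rtkn2/Gm33489 rows.

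Phgr1 moved in opposite directions between states. In the state led by Plppr1 and Adarb2 its level was 19.1 and 18.4 CPM under vehicle against 249 and 215 CPM under tamoxifen, for ratios of 3.64 (3.31 to 4.13) and 3.48 (3.35 to 3.75). Its thinned share there after depletion was 7.26% (5.32 to 9.62) with vehicle and 31.9% (29.4 to 34.5) with tamoxifen. In the Sdk1-led state it was 111 and 215 CPM against 10.1 and 19.5 CPM, for ratios of -3.33 (-5.36 to -2.06) and -3.40 (-4.01 to -2.97). The cells of the Sdk1-led state also differed in other markers. All 10 alveolar type 2 markers were counted there, at a summed 66798 and 78197 CPM under vehicle against 21777 and 23015 CPM under tamoxifen. Their part in the differences of Phgr1, Agr2 and Tspan8 in this state was not tested. In the Plppr1-led state the same sums were 117270 and 127825 CPM against 98541 and 110660 CPM. Hnf4a was higher with tamoxifen in both states. Its ratios were 3.15 and 2.68 in the Sdk1-led state, with 331 and 487 CPM under tamoxifen, and 1.81 and 1.51 in the Plppr1-led state. In the Spink1-led state Phgr1 lay between 327 and 387 CPM in all 4 libraries. In the transitional-like state led by Pyy it was lower with tamoxifen in both pairs, at -0.36 (-0.64 to -0.10) and -1.14 (-1.27 to -1.05). The same held in the alveolar type 1-like state led by Rtkn2, at -1.36 (-2.45 to -0.50) and -0.57 (-0.92 to -0.26).

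Tspan8 was counted in every state. Among states of at least 50 cells after depletion, it was lowest with vehicle in the alveolar type 2-like state led by Lyz1, at 282 CPM (275 to 289). With tamoxifen it was lowest in the Sdk1-led state, at 246 CPM (223 to 271), and in the Lyz1-led state, at 267 CPM (258 to 276). The Spink1-led state was highest in both, at 979 CPM (969 to 989) and 994 CPM (967 to 1022), and these intervals overlap. Tspan8 was 2-fold lower with tamoxifen in both pairs in the Sdk1-led state, where its ratios were -1.67 (-2.08 to -1.28) and -1.47 (-1.62 to -1.32).

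Cldn2 was highest after depletion with vehicle in the state led by Ahsg and Tfpi, at 60.4 CPM (45.5 to 78.7). It was counted there at 52.2 CPM (49.95 to 54.5) with tamoxifen, and these intervals overlap. The Ahsg-led state made up 0.597% (0.425 to 0.815) of epithelial-like cells with vehicle and 24.5% (23.5 to 25.5) with tamoxifen after depletion, and held 47.2% of the Cldn2 UMIs in the latter. Cldn2 was also higher with tamoxifen within the transitional-like state, with ratios of 0.96 (0.49 to 1.62) and 1.03 (0.90 to 1.30). In the alveolar type 2-like state led by Lyz1, its ratios were 1.03 (0.49 to 1.83) and 0.82 (0.57 to 1.28). It was lower with tamoxifen in the Sdk1-led state after depletion, at -1.02 (-1.68 to -0.50), and in the Plppr1-led state before depletion, at -0.57 (-0.997 to -0.18). In the other pair of each of these states the interval held 0. The Lyz1-led state stood at the low end for Agr2 and Vil1, with at most 4.99 and 1.26 CPM in the 4 libraries.

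**Figure D3:**
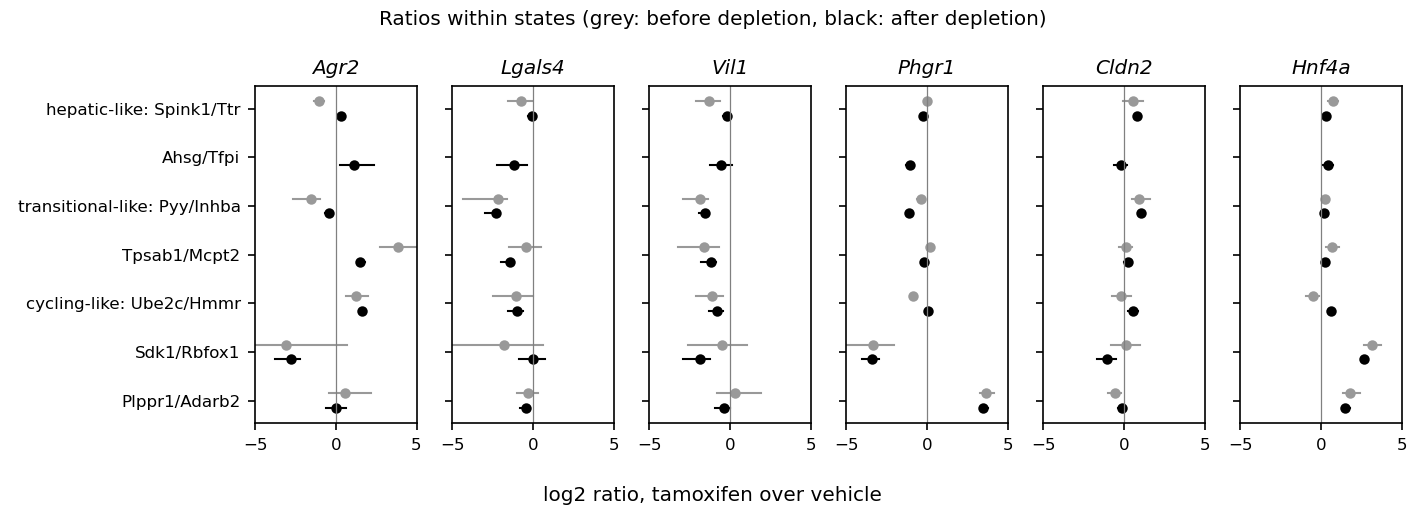
Log2 ratio of tamoxifen over vehicle within 7 epithelial-like states for 5 genes and Hnf4a. Grey points are the pre-depletion pair, black points the post-depletion pair, and lines are exact 95% intervals from counting, drawn to at most 5 on either side. Phgr1 is higher in the Plppr1/Adarb2 state and lower in the Sdk1/Rbfox1 state in both pairs, while Agr2 differs in sign between the pairs in the Spink1/Ttr state.

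Since the states differed in share, the levels were recomputed with the vehicle's mix of states applied to both arms, a setting chosen after seeing the data. By this measure 0 of the 10 genes were 2-fold lower in both pairs, against 32 of 8983 genes (0.356%). The only gene of the 10 that was 2-fold higher was Tff3, against 15 genes in all (0.167%), and its value rests on the single cells described above. The Agr2 ratio became -1.09 before and 0.28 after depletion. The Lgals4 ratio became -0.79 and -0.54, and the Vil1 ratio -1.22 and -0.59. With the tamoxifen mix applied to both arms, Agr2 was at -1.09 and 0.54, Lgals4 at -0.71 and -1.04 and Vil1 at -1.05 and -0.76. Cldn2 was at 0.43 and 0.61, and at 0.14 and 0.09 with the tamoxifen mix. The pre-depletion recomputation used 9 states, which held 73.6% of tamoxifen UMIs, because the Ahsg-led state had 6 vehicle cells. With the Spink1-led state left out, also a later choice, 0 of the 10 genes were 2-fold lower in both pairs, against 43 of all genes. Agr2 was then at -0.57 and 0.48, Lgals4 at -0.80 and -1.27 and Vil1 at -0.52 and -0.76. The mean over cells left Vil1 under 2-fold before depletion, at -0.96, and a gate on each cell left Agr2 under 2-fold, at -0.59.

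Co-detection with Hnf4a was measured in cells thinned to 5000 UMIs. With vehicle after depletion, Agr2 was seen in 13.4% (11.4 to 15.7) of 991 cells with a Hnf4a UMI and in 6.87% (6.20 to 7.60) of 5106 cells without one. Vil1 was seen in 15.04% (12.9 to 17.4) and 5.58% (4.97 to 6.25), and Phgr1 in 33.6% (30.7 to 36.6) and 20.4% (19.3 to 21.6). Lgals4 was seen in 10.9% (9.03 to 13.01) and 5.56% (4.95 to 6.23). All 4 were more frequent beside Hnf4a in this library.

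With tamoxifen after depletion, Agr2 was seen in 6.77% (5.54 to 8.18) of 1462 cells with a Hnf4a UMI and 2.98% (2.53 to 3.47) of 5274 without one. Vil1 was seen in 4.65% (3.63 to 5.86) and 3.07% (2.62 to 3.57), and Cldn2 in 17.2% (15.3 to 19.2) and 9.03% (8.27 to 9.83). The intervals overlapped for Lgals4, at 3.21% (2.37 to 4.25) and 2.75% (2.32 to 3.23). They also overlapped for Phgr1, at 19.4% (17.4 to 21.5) and 18.4% (17.4 to 19.5). The intervals lay apart in both post-depletion libraries for 4 genes, Agr2, Vil1, Tspan8 and Cldn2. The same held for 14.5% of the 12018 genes seen in at least 1% of cells of both libraries. Of the 10 genes, Cdx2, Tff3, Cdh17 and Muc13 fell under that limit. With a share ratio of at least 1.5 in both libraries as well, Agr2 and Vil1 remained, against 3.25% of genes. Without the Spink1-led state the same 4 genes lay apart, while Agr2 and Cldn2 did so without the Lyz1-led state and only Agr2 when thinned to 2000 UMIs. The median share ratio over all genes was 1.08 with vehicle and 1.06 with tamoxifen. Tspan8 was seen in 91.6% of cells with and 80.8% without a Hnf4a UMI with vehicle, and in 83.6% and 79.9% with tamoxifen. Its share ratios, 1.13 and 1.05, lay near those medians, and 58.1% and 47.3% of genes had a lower ratio. Whether a difference between the treatments in these ratios exceeds the spread between animals was not tested.

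**Figure D4:**
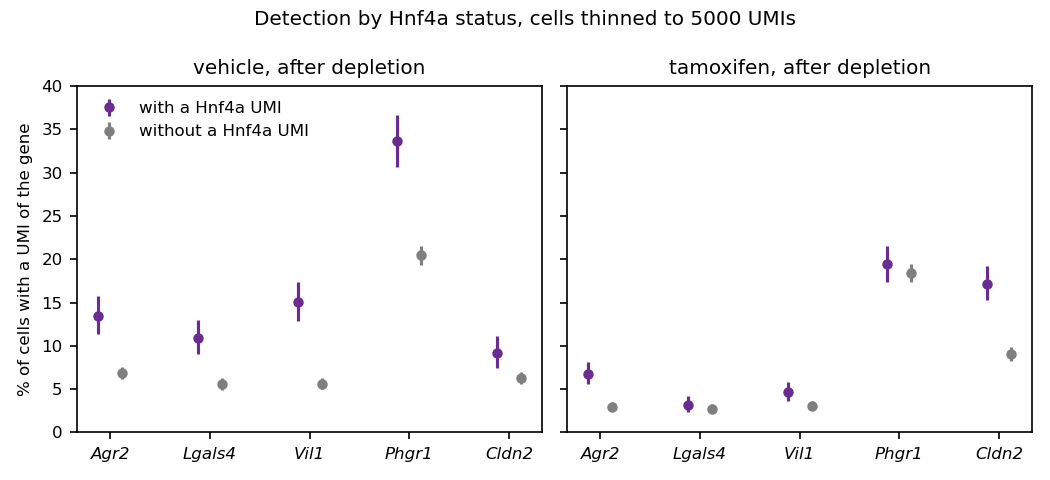
Share of epithelial-like cells with a UMI of each gene among cells with (purple) and without (grey) a Hnf4a UMI, after thinning to 5000 UMIs, in the post-depletion libraries. Bars are Clopper-Pearson 95% intervals. Agr2, Vil1 and Cldn2 lie higher beside Hnf4a in both libraries, with intervals apart. For Lgals4 and Phgr1 the intervals lie apart with vehicle and overlap with tamoxifen.

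Within single states few intervals lay apart. Over 17 comparisons of a state in a library, each with at least 30 cells on both sides, the intervals for Agr2, Lgals4 and Vil1 overlapped in all 17. Phgr1 lay apart in 1, the Ahsg-led state with tamoxifen after depletion, at 19.4% (16.4 to 22.8) with and 12.98% (11.04 to 15.1) without Hnf4a. Cldn2 lay apart in the same state, at 23.7% (20.3 to 27.2) and 17.5% (15.3 to 19.8). Tff3 was more frequent beside Hnf4a in the Spink1-led state with vehicle after depletion, at 5.31% (3.12 to 8.37) against 1.63% (0.892 to 2.71). Tspan8 was more frequent beside Hnf4a in the transitional-like state with vehicle after depletion, at 92.4% (89.3 to 94.8) against 87.1% (84.7 to 89.2). It was less frequent in the Sdk1-led state with tamoxifen after depletion, at 35.2% (26.2 to 45.2) against 65.4% (50.9 to 78.03). Overlapping intervals do not show that shares were equal.

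Endothelial-like cells, which should lack most of these genes, were used as a guide to the level of free RNA. Free RNA, doublets and RNA made by these cells were not told apart. Muc13 was seen in 7.06% to 11.4% of them, above its epithelial-like share of at most 0.279%. Among endothelial-like cells, Agr2 was seen in 0% to 1.36% of 85 to 147 cells per library, where 0 of 85 allows up to 3.53%. The Clopper-Pearson interval of that 0 reaches 4.25% and overlaps the Agr2 share of epithelial-like cells with tamoxifen after depletion, 3.80% (3.36 to 4.28). The shares of Agr2 also overlap with tamoxifen before depletion, where the endothelial-like interval reaches 4.15%, and lie apart in both vehicle libraries. In CPM, Agr2 after depletion with tamoxifen was 1.11 (0.0282 to 6.20) in endothelial-like against 40.3 in epithelial-like cells. Median depths before thinning were 16839 to 28716 UMIs in epithelial-like and 7293 to 13934 UMIs in endothelial-like cells. Unthinned, Agr2 was seen in 14.3% and 7.36% of epithelial-like cells after depletion with vehicle and tamoxifen. Lgals4 was seen in 7.06% (2.63 to 14.7) of endothelial-like cells with tamoxifen after depletion, above its epithelial-like share of 2.85% (2.47 to 3.28). No expression is read from that Lgals4 share. Vil1 was seen in 2.35% (0.286 to 8.24) of those endothelial-like cells and 3.41% (2.99 to 3.88) of epithelial-like cells, so its share with tamoxifen is not separated from background either. With vehicle after depletion, Vil1 was at 7.12% (6.49 to 7.79) against 2.72% (0.746 to 6.82), and these intervals overlap as well.

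Several of the genes were seen in the same cells. With vehicle after depletion, 92 cells held both Agr2 and Vil1, or 2.67 times (2.15 to 3.28) the number that independence would give. Agr2 and Phgr1 shared 266 cells, or 2.43 times (2.15 to 2.74). With tamoxifen after depletion the ratios were 2.40 (1.49 to 3.67) and 2.22 (1.82 to 2.69), and Agr2 and Cldn2 shared 74 cells, or 2.68 times (2.10 to 3.36). Lgals4 and Vil1 were at 1.54 (1.12 to 2.08) with vehicle and 0.763 (0.248 to 1.78) with tamoxifen. Independence was taken over all epithelial-like cells of a library, without regard to state. Agr2, Vil1, Phgr1 and Lgals4 each had their highest shares in the Spink1-led state, so the mix of states enters these ratios. Its part was not tested, and the ratios of other pairs of genes were not computed. Leaving out Tspan8, which most cells held, at least 2 of the other 9 genes were seen in 11.7% (10.9 to 12.6) of epithelial-like cells with vehicle and 6.46% (5.88 to 7.07) with tamoxifen after depletion. Before depletion these shares were 6.82% (5.32 to 8.58) and 6.18% (4.82 to 7.78), which overlap. The endothelial-like shares were 0.680% to 1.52%.

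Few further gut genes, from 5 lists, differed by this rule. Of 12 intestinal transcription factors, 5 reached the CPM minimum in both pairs and 0 were 2-fold apart. Klf4, the most abundant of them, had ratios of -0.01 and -0.26. Of 19 brush border genes measured, 5 reached the minimum and 0 were apart, with Ezr, which encodes the membrane linker ezrin, at -0.08 and -0.08. Of 14 goblet and secretory genes, 3 reached it and 1 was lower. This was Guca2a, which encodes the peptide guanylin, at 42.4 and 33.5 CPM under vehicle against 11.8 and 11.2 CPM under tamoxifen. Of 15 surface and junction genes, 7 reached it and 1 was lower, the gut antigen gene Gpa33, at 14.99 and 17.4 CPM against 3.74 and 5.77 CPM. Of 8 stem cell genes, 3 reached it and 0 were apart.

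Stomach and liver genes give a comparison. Of 10 gastric genes, 4 reached the minimum and 0 were apart, and Gkn2, a gastrokine, had ratios of 0.32 and -0.17. Of 10 hepatic genes, 6 reached it and 3 were lower, against 0.885% of all genes: Ttr, which encodes the carrier transthyretin, Gc, the vitamin D binding protein, and Rbp4, the retinol carrier. The Ttr ratios were -3.57 and -3.10, and those of Gc -2.09 and -1.70. These genes also mark the Spink1-led state by which the cells were grouped. Median ratios of the hepatic list were -0.94 and -1.34, against 0.19 and -0.04 for the gastric list.

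Levels across 33 sums of a state in a library, each of at least 50 cells, were compared with 8643 other genes as a description. The sums share libraries and depth, and genes were matched on log2 levels by Pearson correlation. Agr2 was most like Apoa1 at 0.91, Alb at 0.88 and Lce3f at 0.86. Of these, Apoa1 and Alb encode blood proteins made by liver. Tff3 was most like Ttr at 0.84 and Guca2a at 0.82. Cldn2 was most like Creb3l1 at 0.89 and Noxo1 at 0.88, and Phgr1 was most like Cltrn at 0.82, with Gkn2 at 0.81. Vil1 was most like Plgrkt at 0.92 and Bag2 at 0.89, and Lgals4 was most like Nup210l at 0.85. Hnf4a correlated at 0.73 with Vil1, 0.61 with Agr2, 0.54 with Cldn2 and with Tspan8, 0.51 with Phgr1, 0.32 with Lgals4 and 0.22 with Tff3. Its usual correlation over all genes was not computed.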

How the data were processed

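The deposited matrices hold raw UMI counts per gene and cell barcode, not normalized by the authors. Cell Ranger 7.0.1 wrote them, per the file headers, while the submitters' processing notes name Cell Ranger 7.2.0 and the build mm10. The chemistry was the 10x 3′ kit, per the labels' protocols. Annotation release, intronic reads and strand use are not given in the sources used here. Of 32289 features, 32158 matched GENCODE M21 (GRCm38), and 4 are not mouse genes.

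Cells needed 200 genes or more and no more than 20% mitochondrial UMIs. Doublets were scored with Scrublet in scanpy 1.11.5 (expected rate 0.06), and those scored above 0.25, a limit set after seeing the data, were removed. Cells of all libraries were clustered together with Leiden (igraph 0.11.9, resolution 1, 2000 variable genes, 40 components, 15 neighbours), and classes were named from marker lists. States used resolution 0.6. A state name needed a marker score of at least 1, a threshold set after seeing the data. Class and state names were rebuilt here and not taken from the study. The size rule and thinning were checked on simulated data. TMM used edgeR 4.0.16 and median of ratios DESeq2 1.42.0, each as a scaling only. The text names all 10 genes, Hnf4a, the list genes 2-fold apart or most abundant in their list, and up to 3 genes most alike in level. The genes and lists were chosen with earlier results of these data known. A further allele in the labels is not reported here.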

Additional observations from a re-analysis of the deposited data

Results flagged for a closer look

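Ratios of the same gene went opposite ways in different epithelial-like states, in both pairs of libraries. The Sdk1-led state held only 28 vehicle and 30 tamoxifen cells before depletion. After depletion, Phgr1 was at 3.48 (log2, tamoxifen over vehicle) in the Plppr1-led state and at -3.40 in the Sdk1-led state. Agr2 was at 1.61 in the cycling-like state and at -0.42 in the transitional-like state. The thinned share of cycling-like cells with Agr2 was 6.60% (3.56 to 11.02) with vehicle and 7.07% (4.37 to 10.7) with tamoxifen, so the difference in CPM there was not seen in the share of cells. Whether these effects differ between states was not tested, since each arm holds 1 library.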

How the results depend on the processing

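No paired analysis was possible because each group holds 1 library and the labels carry no replicate numbers. The count of 3 genes lower in both pairs became 1 (Agr2) with a minimum of 50 CPM and 0 with the same mix of states or without the Spink1-led state. The count of 0 genes higher became 1 at 1.5-fold (Cldn2) and 1 with the same mix of states (Tff3). The 4 genes more frequent beside Hnf4a became 1 (Agr2) when thinned to 2000 UMIs and 2 (Agr2 and Cldn2) without the Lyz1-led state. The Agr2 ratio after depletion changed sign with the same mix of states, at 0.28, and without the Spink1-led state, at 0.48. The Spink1-led or matching state held 88.9% of vehicle Agr2 UMIs at resolution 0.3 and 89.2% at 1.0. For Tff3 it held 76.8% and 76.7%, and 96.1% with all genes allowed in clustering. Over all genes, 80 were lower, against 19 with a minimum of 50 CPM, 154 with none, 191 at 1.5-fold, 49 by the mean over cells, 32 with the same mix of states and 43 without the Spink1-led state. Of 240 alternative ratios of single genes, 59 moved by more than counting error and 181 did not, with the 24 of Cdx2, which have no interval, among the latter. In 14 the sign changed. Besides Agr2 these were ratios of Tff3, Phgr1, Tspan8 and Cdh17. After depletion, Tff3 went from 0.21 to -0.25 by the mean over cells, -2.66 with a gate on each cell and -0.48 without the Spink1-led state. Before depletion it went from 0.46 to -0.29 with the gate and -1.20 without that state. Phgr1 went to 0.48 and 0.20 without that state, before and after depletion, and to 0.06 with the same mix of states before depletion. TMM and median of ratios left the 3 lower genes in place. Cdx2, Cdh17 and Muc13 stayed under 10 CPM in every library, so the rule at that minimum did not consider them.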
